A study of Mus musculus with 6 samples.

Results

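The 10 genes described here belong to the T helper 1 (Th1) program and were measured in regulatory T cells (Tregs, which hold immune responses in check) from the inflamed mouse colon. They were Tbx21, which encodes T-bet, Cxcr3, Ifng, Stat4, Il12rb1, Il12rb2, Il18r1, Il18rap, Runx3 and Hopx. They were chosen by symbol, with earlier results of these data known, and all are reported whatever their values. All 10 were among the 24537 genes of the deposited table and among the 13211 that passed the filter of at least 1 TPM (a level per unit of transcript length, scaled to the library) in at least 3 of the 6 libraries. By the genotype in the labels, 3 of the libraries are wild type (WT) and 3 are REV-ERB knockout (KO). REV-ERB is the nuclear receptor and transcriptional repressor of the circadian clock named in the series title. Mice of both groups had colitis induced by TNBS, a hapten, with 150 µl of 1% TNBS on the skin and 100 µl of 2.5% TNBS in the rectum 7 days later. How the Tregs were isolated, which REV-ERB gene or exons the knockout removes, in which cells, as well as age and strain, are not stated in the sources used here.

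T-bet is the transcription factor that sets up the Th1 state, in which T cells make interferon-γ (IFN-γ). Interleukin-12 (IL-12), made by myeloid cells, acts through its receptor chains and the transcription factor STAT4, and IL-18 acts through its own pair of receptor chains, to drive IFN-γ in such cells. Tregs in type 1 inflammation can also express T-bet and, with it, the chemokine receptor CXCR3, which guides cells toward the IFN-γ-induced chemokines CXCL9, CXCL10 and CXCL11.

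Nr1d1, which encodes REV-ERBα, was measured at 169.2, 154.3 and 141.4 TPM in the KO-labelled libraries 1, 2 and 3 and at 66.3, 104.0 and 88.2 TPM in the WT-labelled ones 1, 2 and 3. The level was higher in every KO-labelled library. The reason was not tested, since what the knockout removes and in which cells is not stated. Every direction below follows the labels as given. The Treg factor Foxp3 and Cd4 were present in all 6 libraries, and both were lower in every KO-labelled library. The mean ± SD of Foxp3 was 200.6 ± 32.1 against 568.4 ± 107.8 TPM, and of Cd4 419.9 ± 8.14 against 492.1 ± 35.9 TPM. The sum of 6 Treg markers was 3797 to 4359 TPM in the KO-labelled libraries and 5065 to 5637 TPM in the WT-labelled ones. Of these markers, 3 were lower in every KO-labelled library, and 1 had a log2 difference above 0. Of the CD8 T cell markers, Cd8a was measured at 0.123 to 0.905 TPM and Cd8b1 at 4.67 to 7.35 TPM. The summed level of 17 epithelial markers was 3679 to 6953 TPM in the KO-labelled libraries and 2341 to 3519 TPM in the WT-labelled ones. The sum of 12 pan T cell genes was 3203 to 3706 TPM against 3751 to 4164 TPM. In bulk RNA, fewer cells of a type and less RNA per cell cannot be told apart. The depth was 9794480 to 15890630 reads per library, and every KO-labelled library was deeper than every WT-labelled one. The 10 genes had 116 to 8117 reads each in a library.

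The promoters of the 2 genes that were lower together, Tbx21 and Cxcr3, and of Ifng, the cytokine gene they are linked to, are shown to let the results be read beside the start sites. Each runs from 250 bases before to 50 bases after the start of the deposited transcript, 5′ to 3′ on the gene's strand, from RefSeq, build GRCm38.p6. Capitals mark matches on either strand to the T-box core GTGTGA, the STAT motif TTCNNNGAA, the Runx core TGTGGT or the core AGGTCA that REV-ERB and ROR receptors bind.
Tbx21 (chr11:97115282-97115581, minus strand): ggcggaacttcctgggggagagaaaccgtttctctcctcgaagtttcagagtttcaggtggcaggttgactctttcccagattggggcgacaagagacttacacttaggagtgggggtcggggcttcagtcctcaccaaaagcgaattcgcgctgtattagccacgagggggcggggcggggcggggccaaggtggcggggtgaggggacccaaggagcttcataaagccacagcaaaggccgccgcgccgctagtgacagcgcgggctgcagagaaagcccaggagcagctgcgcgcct
Cxcr3 (chrX:101734098-101734397, minus strand): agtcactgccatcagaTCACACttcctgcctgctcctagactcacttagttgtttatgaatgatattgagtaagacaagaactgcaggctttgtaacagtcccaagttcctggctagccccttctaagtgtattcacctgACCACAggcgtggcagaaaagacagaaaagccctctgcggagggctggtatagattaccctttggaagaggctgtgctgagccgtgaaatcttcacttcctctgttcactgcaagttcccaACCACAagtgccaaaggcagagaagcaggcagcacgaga
Ifng (chr10:118440796-118441095, plus strand): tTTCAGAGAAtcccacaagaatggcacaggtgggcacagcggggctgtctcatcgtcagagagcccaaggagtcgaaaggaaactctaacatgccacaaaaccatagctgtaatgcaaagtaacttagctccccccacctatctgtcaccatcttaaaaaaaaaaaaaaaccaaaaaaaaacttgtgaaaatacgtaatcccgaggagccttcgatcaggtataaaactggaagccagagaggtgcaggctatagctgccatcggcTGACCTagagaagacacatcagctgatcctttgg
The Cxcr3 window held a T-box core on the opposite strand, beginning 234 bases before the start, and Runx cores beginning 110 bases before and at base 12 after it. The Tbx21 window had none of the 4 motifs, which says only that these letters are not in this window. The Ifng window held a STAT motif and, from base 17 after the start, the core AGGTCA on the opposite strand. No marked matches in these windows overlapped. Of all 32851 RefSeq promoter windows of the same length, 14.5% held the T-box core, 8.3% the STAT motif, 16.8% the Runx core and 16.3% the AGGTCA core. A match is a description of the letters and not of binding.

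Cxcr3 and Tbx21 were lower in every KO-labelled library than in every WT-labelled library, while the other 8 genes overlapped between the groups. Cxcr3 was lower 2.12-fold and Tbx21 1.56-fold by the group means of TPM. Of the 10 genes, 0 passed limma's test at an adjusted p of 0.05, and so did 0.0% of all genes tested. At an unadjusted p under 0.05, 2 of 10 were lower, against 7.86% of all genes, and 0 were higher, against 7.8%. With voom on the reads recovered from TPM, 0 passed, against 0.0% of all genes, and 3 of 10 (Cxcr3, Tbx21 and Il18rap) had an unadjusted p under 0.05, against 16.5%. Groups that did not overlap were found for 2 of 10 genes, both lower in the KO-labelled libraries, against 10.4% of all genes in that direction, 10.6% in the other and 21.0% in either, so the count by itself is no result about these genes. The median difference over the 10 genes was 0.03 on the log2 scale, labelled KO minus labelled WT, beside 0.00 over all genes tested. Without the library labelled WT 1, 14 of all genes passed, none of the 10 among them, and the groups of Ifng, Stat4 and Il18rap also ceased to overlap, which made 5 of 10, against 40.4% of all genes in that smaller design. Without the library labelled KO 3 it was 4 of 10, with Stat4 and Il12rb1 added, against 42.9% of all genes.

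**Figure D1:**
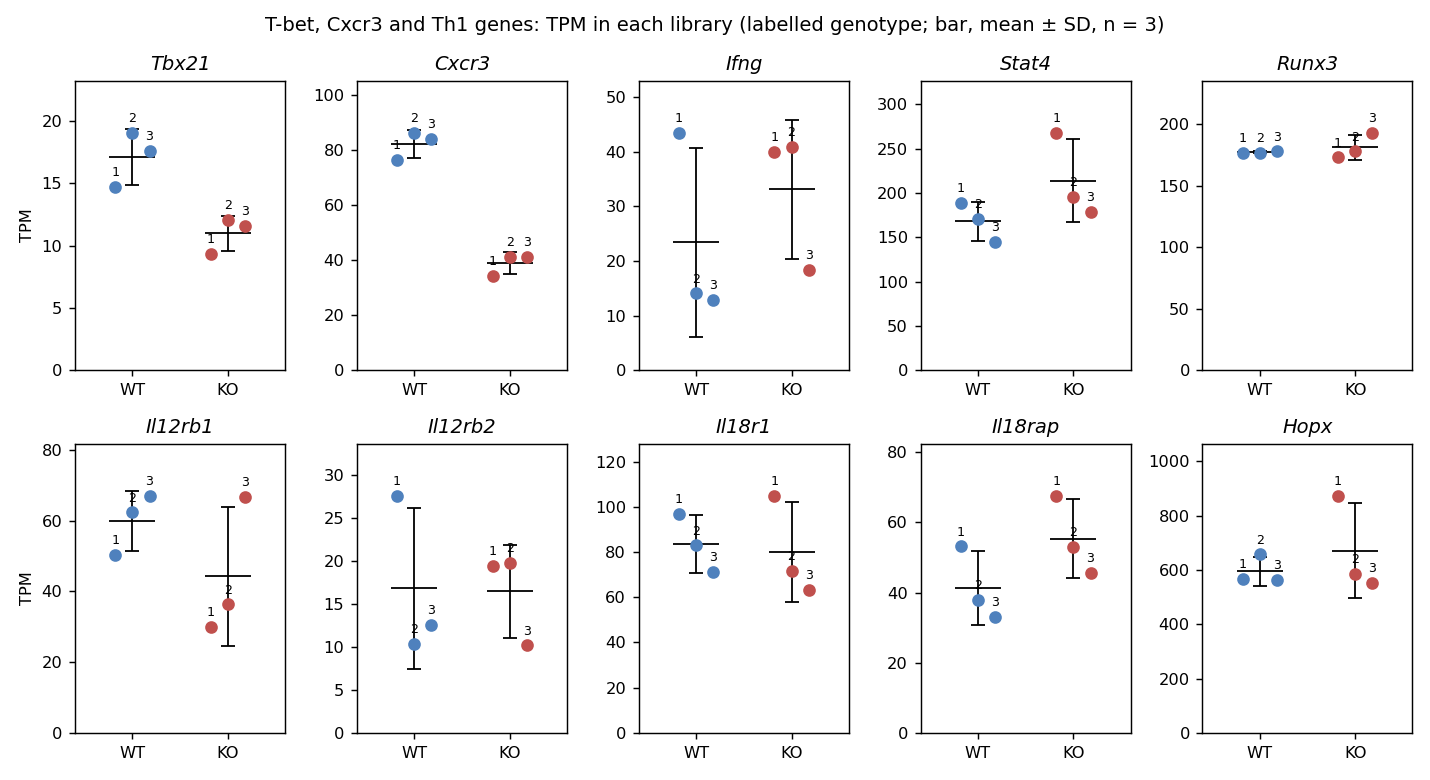
TPM of each gene (vertical axis, from 0, own scale per panel) in the 3 libraries labelled WT (blue) and the 3 labelled KO (red), numbered by library, with the mean ± SD in black. Tbx21 and Cxcr3 separate the groups, with Cxcr3 at 34.2 to 41.2 TPM against 76.5 to 86.1 TPM, and the other 8 genes overlap.

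Cxcr3, the chemokine receptor, is the row NM_009910 at chrX:101731535-101734147 on the minus strand of mm10, and no other annotated gene overlaps it. It was found at 34.2, 41.1 and 41.2 TPM in the KO-labelled libraries 1, 2 and 3, and at 76.5, 86.1 and 84.1 TPM in the WT-labelled ones 1, 2 and 3. The groups lay far apart, and each varied little, at 38.8 ± 4.02 TPM against 82.2 ± 5.07 TPM (SD, n = 3 each). These values rest on 1774 reads in the KO-labelled libraries and 2884 in the WT-labelled ones. On the log2(TPM + 1) scale, which slightly understates the change of low genes, the difference was -1.07 (SE 0.114, 95% interval -1.33 to -0.80, limma adjusted p = 0.0678). Its unadjusted p of 1.62e-05 was the smallest of the 13211 genes in this fit, and among 15 other settings its place by p ran from 1 to 16. The difference stayed between -1.12 and -0.85 in those settings, and its limma adjusted p ran from 0.0516 to 0.865. An exact permutation test gave p = 0.1, the lowest value possible with 3 libraries per group.

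Tbx21, the gene of T-bet, is the row NM_019507 at chr11:97098007-97115331 on the minus strand of mm10, and no other annotated gene overlaps it. Its level was 9.34, 12.0 and 11.5 TPM in the KO-labelled libraries and at 14.7, 19.0 and 17.6 TPM in the WT-labelled ones. The gap between the groups was narrower than for Cxcr3, with the highest library labelled KO near the lowest labelled WT. The mean ± SD was 10.97 ± 1.43 TPM against 17.1 ± 2.22 TPM (n = 3 each), from 795 and 954 reads. This was a log2 difference of -0.60 (SE 0.166, 95% interval -0.98 to -0.21, unadjusted p = 0.00727, limma adjusted p = 0.195). The exact permutation p was again 0.1. Cxcr3 stood at 3.66, 3.42 and 3.57 times the TPM of Tbx21 in the KO-labelled libraries and at 5.22, 4.53 and 4.77 times in the WT-labelled ones. This ratio, chosen after its values were seen and not tested, was lower in every KO-labelled library.

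The library pattern of Tbx21 and Cxcr3 was compared with that of 10291 other genes with a mean of at least 5 TPM. The measure was the root mean square difference of log2(TPM + 1) over the 6 libraries after each gene was centred on its own mean, given as a description. Nearest to Tbx21 were Zfp54 (0.053), Accs (0.057) and Trim11 (0.064). Nearest to Cxcr3 were Tbx6 (0.092), Prrt2 (0.127) and the guanylate-binding protein gene Gbp10 (0.129). Gbp10, for example, was measured at 5.65, 5.85 and 4.93 TPM in the KO-labelled libraries and at 11.6, 14.3 and 13.2 TPM in the WT-labelled ones. Between Tbx21 and Cxcr3 themselves the measure was 0.243. The closest pair among the 10 genes was Stat4 and Il18rap, at 0.117.

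Ifng, the cytokine of the program, did not separate the groups. Its row, NM_008337 at chr10:118441046-118445894 on the plus strand, stood at 40.06, 40.97 and 18.3 TPM in the KO-labelled libraries and at 43.4, 14.1 and 12.9 TPM in the WT-labelled ones. High and low libraries occurred under both labels: KO 1, KO 2 and WT 1 were high, and KO 3, WT 2 and WT 3 were low. The difference was 0.62 on the log2 scale with an interval of -0.50 to 1.73 (limma adjusted p = 0.562), so a change in either direction was not resolved. Without the library labelled WT 1 it was 1.16. A fit with the epithelial score (mean log2 level of the 17 markers) as a covariate gave -0.51. That score was higher in every KO-labelled library, so such a fit cannot fully tell label and score apart. The groups also overlapped for Il12rb2, the IL-12 receptor chain that is induced in Th1 cells (NM_001311141, chr6:67292018-67339694, minus strand). It stood at 19.4, 19.9 and 10.2 TPM in the KO-labelled libraries and at 27.6, 10.3 and 12.6 TPM in the WT-labelled ones. The same 3 libraries, KO 1, KO 2 and WT 1, were high as for Ifng. Its difference was 0.04 (interval -0.84 to 0.92, limma adjusted p = 0.972), and -0.95 with the epithelial covariate. Its 3′ end overlaps Serbp1 on the opposite strand, and the sources used here do not say if the counting used strand. The Il12rb2 row, of 1888 bases, starts downstream of the RefSeq start site of the gene, at chr6:67376188. Whether its values cover transcripts from that site was not tested.

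Natural killer (NK) cells and group 1 innate lymphoid cells (ILC1), which also make IFN-γ, were looked for with 7 marker genes. Their summed level was 6.58, 7.68 and 2.86 TPM in the KO-labelled libraries and 11.9, 5.12 and 4.92 TPM in the WT-labelled ones. It was highest in the same 3 libraries as Ifng and Il12rb2. Ncr1, the NK receptor NKp46, was at 2.77, 2.37 and 0.782 TPM against 4.10, 1.69 and 0.642 TPM. Klri2 was also highest in those 3 libraries, but Klrb1c, Klre1 and Eomes were not. Klre1 was lower in every KO-labelled library, at 0.262, 0.238 and 0 TPM against 1.69, 1.43 and 0.59 TPM. No single marker exceeded 4.10 TPM, so all lay at low levels. The Ly49 genes Klra8 and Klra4 were listed at 0 in all 6 libraries, and Eomes, the T-box factor of NK cells, did not exceed 0.446 TPM. The part of such cells in the Ifng and Il12rb2 values was not tested.

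**Figure D2:**
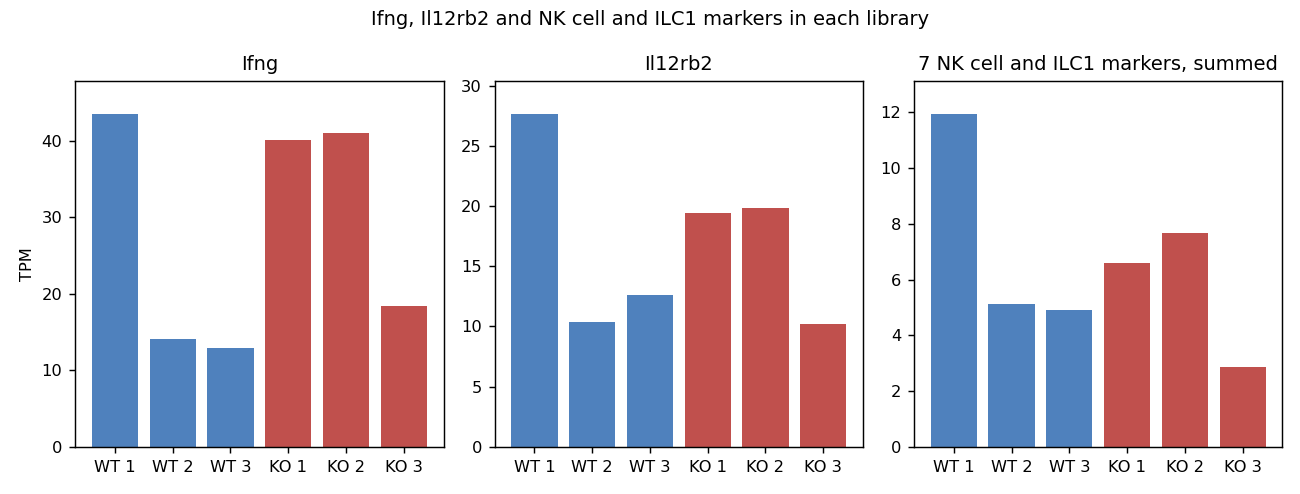
TPM (vertical axis, from 0) of Ifng, of Il12rb2 and of 7 NK cell and ILC1 markers summed, in each library, blue for the WT-labelled ones and red for the KO-labelled ones. In all 3 panels WT 1, KO 1 and KO 2 are the highest libraries, with the marker sum at 11.9, 6.58 and 7.68 TPM.

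The other chain of the IL-12 receptor, Il12rb1, is shared with the IL-23 receptor (NM_008353, chr8:70808449-70821423, plus strand). It was found at 29.95, 36.3 and 66.7 TPM in the KO-labelled libraries and at 50.4, 62.3 and 67.0 TPM in the WT-labelled ones. KO 1 and KO 2 were below all WT-labelled libraries, and KO 3 was at the level of the highest. The difference was -0.50 (interval -1.13 to 0.13, limma adjusted p = 0.411). The value went to -0.83 when KO 3 was left out and to 0.03 with the epithelial covariate. Il12rb2 stood at 64.8%, 54.6% and 15.3% of the TPM of Il12rb1 in the KO-labelled libraries and at 54.8%, 16.6% and 18.8% in the WT-labelled ones. The log2 ratio was -1.35 ± 1.09 against -1.88 ± 0.903 (SD, n = 3 each), a difference of 0.54. The balance of the chains thus differed between libraries of one label by more than between the labels. An exact permutation test of the difference between the labels gave p = 0.7.

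Stat4, the transcription factor downstream of IL-12, was measured at 267.5, 195.4 and 178.8 TPM in the KO-labelled libraries and at 189.1, 170.3 and 144.7 TPM in the WT-labelled ones (NM_001308266, chr1:51987148-52107189, plus strand). KO 1 and KO 2 lay above all WT-labelled libraries and KO 3 within their range. The difference was 0.33 (interval -0.06 to 0.72, limma adjusted p = 0.384). The annotated genes Gm28177 (same strand) and Gm3940 (opposite strand) overlap Stat4, as Gm49751 overlaps Ifng on the same strand.

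The receptor chains of IL-18 are neighbours, with 14507 bases between them on the plus strand of chromosome 1. Il18r1, the chain that binds IL-18 (NM_008365, chr1:40466006-40500854), was measured at 104.8, 71.8 and 63.3 TPM in the KO-labelled libraries and at 96.9, 82.9 and 71.1 TPM in the WT-labelled ones. The groups covered much the same range, with a difference of -0.09 (interval -0.54 to 0.37, limma adjusted p = 0.858). Il18rap, the accessory chain needed for signalling (NM_010553, chr1:40515362-40551705), was measured at 67.6, 53.0 and 45.6 TPM against 53.2, 37.9 and 33.0 TPM. Here the KO-labelled libraries were mostly higher, and only WT 1 reached their range. The difference was 0.42 (interval -0.05 to 0.90, limma adjusted p = 0.366). Within libraries the pair separated the labels: Il18rap stood at 64.5%, 73.8% and 72.0% of the TPM of Il18r1 in the KO-labelled libraries and at 54.9%, 45.7% and 46.4% in the WT-labelled ones. The log2 ratio differed by 0.51 (-0.51 ± 0.104 against -1.02 ± 0.141, SD, n = 3 each). The exact two-sided permutation p was 0.1, the smallest possible, or 0.133 adjusted over the 4 ratios tested. With any 1 library left out the difference in log2 ratio stayed between 0.46 and 0.59.

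Runx3, a Runt factor that acts with T-bet at Ifng, was nearly constant (NM_019732, chr4:135120645-135177990, plus strand). Its level was 173.2, 178.03 and 192.9 TPM in the KO-labelled libraries and at 177.2, 177.03 and 178.1 TPM in the WT-labelled ones. The difference was 0.03 (interval -0.17 to 0.23, limma adjusted p = 0.888), the narrowest interval of the 10 genes. Hopx, a homeodomain-only protein gene that T-bet induces in Th1 cells, had the highest TPM of the 10 in all 6 libraries (NM_001159900, chr5:77086986-77095267, minus strand). It stood at 872.4, 586.3 and 553.2 TPM in the KO-labelled libraries and at 568, 656.8 and 562 TPM in the WT-labelled ones. Only KO 1 stood apart, and the difference of 0.14 (interval -0.27 to 0.56, limma adjusted p = 0.724) was -0.06 without it. Antisense genes overlap both, Gm16224 at Runx3 and Hopxos at Hopx.

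By mean TPM over the 6 libraries the order was Hopx (633.1), Stat4 (191), Runx3 (179.4), Il18r1 (81.8), Cxcr3 (60.5), Il12rb1 (52.1), Il18rap (48.4), Ifng (28.3), Il12rb2 (16.7) and Tbx21 (14.03). Hopx lay above Stat4, and Runx3 above Il18r1, with no overlap of their ranges over libraries. All other neighbours in this order overlapped. Cxcr3 held place 4 or 5 in the WT-labelled libraries and place 6 or 7 in the KO-labelled ones.

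T-bet shares the Treg with other lineage factors, so its transcript was set against those of Foxp3 and of Gata3, the factor of type 2 responses and of a group of tissue Tregs. Tbx21 stood at 4.78%, 7.01% and 4.92% of the TPM of Foxp3 in the KO-labelled libraries and at 3.25%, 2.86% and 2.98% in the WT-labelled ones. Relative to Foxp3, Tbx21 was thus higher in every KO-labelled library, since Foxp3, at 200.6 ± 32.1 against 568.4 ± 107.8 TPM, was lower by a larger factor. The log2 ratio was -4.07 ± 0.296 against -4.97 ± 0.103 (SD, n = 3 each). Against Gata3 the order was the opposite, at 3.75%, 7.23% and 5.21% in the KO-labelled libraries and 11.6%, 14.96% and 15.1% in the WT-labelled ones. That log2 ratio was -4.14 ± 0.456 against -2.79 ± 0.207. Gata3 itself was higher in every KO-labelled library, at 212.3 ± 42.1 against 123.5 ± 5.92 TPM, and Tbx21 was lower in every one. The Tbx21 to Gata3 groups therefore could not overlap, and this ratio adds nothing to the separation of each gene by itself. Both ratios had an exact two-sided permutation p of 0.1 (0.133 adjusted over the 4 ratios), and neither pair of groups overlapped.

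**Figure D3:**
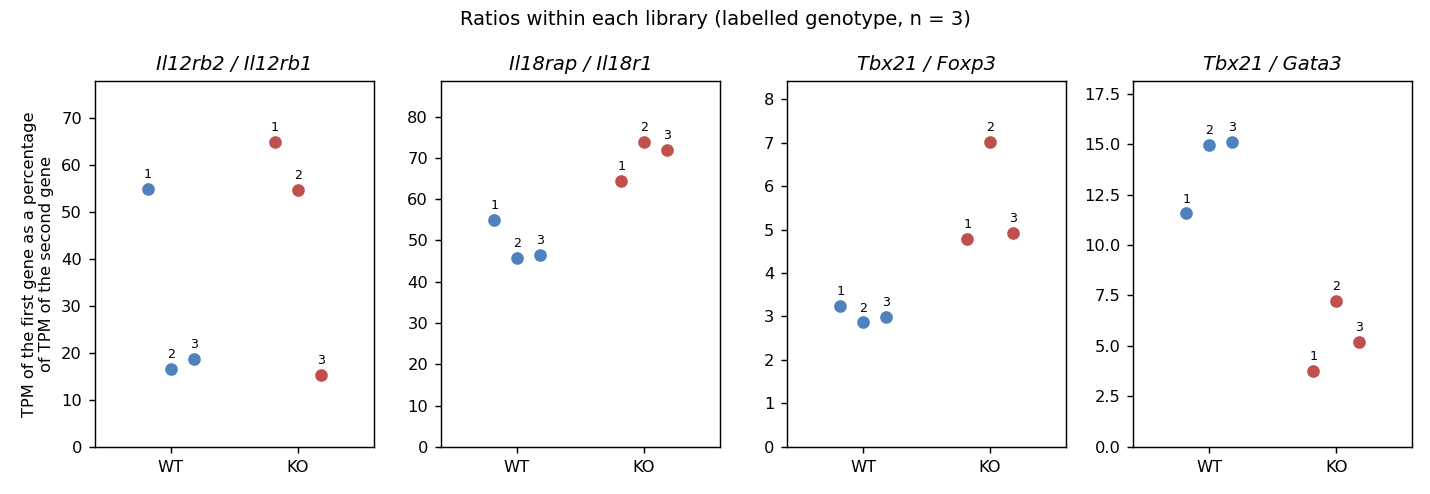
TPM of the first gene as a percentage of TPM of the second (vertical axis, from 0, own scale per panel) in each library, labelled WT in blue and KO in red, numbered by library. The labels separate for Il18rap to Il18r1, Tbx21 to Foxp3 and Tbx21 to Gata3, and overlap for Il12rb2 to Il12rb1, which runs from 15.3% to 64.8% within the KO-labelled libraries.

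Because pan T cell genes were lower in the KO-labelled libraries (median -0.23 on the log2 scale, 1 of 12 above 0), the values were also scaled to the mean log2 level of those 12 genes. This moved the median of all genes to 0.21. Cxcr3 then differed by -0.85 and Tbx21 by -0.38 (unadjusted p = 0.0497), both still lower in every KO-labelled library. Il18rap was at 0.64 and Stat4 at 0.55, with unadjusted p of 0.0371 and 0.0305. Runx3, at 0.24 and so near the median of all genes, became higher in every KO-labelled library. With this scaling 4 of the 10 genes had an unadjusted p under 0.05 by limma, against 21.9% of all genes. The share of all genes whose groups did not overlap was not computed under it. The median of the 10 genes was 0.25. When the epithelial score entered as a covariate, Cxcr3 was at -1.004 (unadjusted p = 0.000816), Tbx21 at -0.49 (unadjusted p = 0.0966) and Il12rb2 at -0.95 (unadjusted p = 0.0468). The score was 6.96 to 7.97 in the KO-labelled libraries and 6.06 to 6.89 in the WT-labelled ones, without overlap. With 6 libraries, label and score therefore cannot be fully told apart in this fit. There 2 of the 10 genes had an unadjusted p under 0.05 by limma, against 4.92% of all genes. None of the 10 genes passed the adjusted threshold of limma in either fit, and the part of epithelial RNA in these differences was not tested beyond them.

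**Figure D4:**
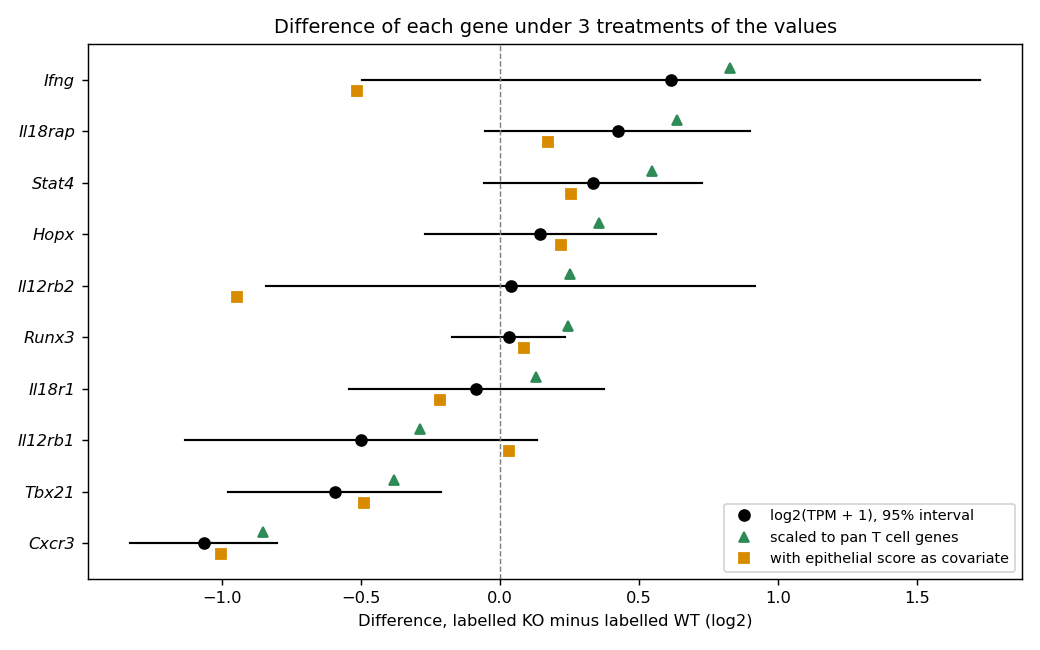
Difference of each gene, labelled KO minus labelled WT, on the log2 scale (horizontal axis): black points with 95% intervals are from log2(TPM + 1), green triangles from values scaled to pan T cell genes, orange squares from the fit with the epithelial score as a covariate. Cxcr3 and Tbx21 lie below 0 under all 3, while Ifng goes from 0.62 to -0.51 and Il12rb2 from 0.04 to -0.95 with the covariate.

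Among the ligands, signal transducers and inhibitors around the IL-12, IL-18 and IL-27 receptors, 0 of 17 tested genes passed limma's adjusted threshold. At an unadjusted p under 0.05, 2 were higher and 2 lower, against 7.8% and 7.86% of all genes tested, and the median was -0.01, beside 0.00 over all genes. Il6st, the gp130 chain shared by IL-6 and IL-27 receptors, was measured at 83.1, 84.99 and 84.3 TPM in the KO-labelled libraries and at 139.5, 255.8 and 219.4 TPM in the WT-labelled ones. Its difference was -1.23 (SE 0.204, limma adjusted p = 0.119), and the groups did not overlap. Il27ra, the chain that pairs with it, differed by -0.40 with overlapping groups. The cytokine gene Il18 was at 11.7, 25.6 and 17.7 TPM against 7.49, 8.74 and 10.4 TPM, higher in every KO-labelled library (0.91, limma adjusted p = 0.211). Epithelial and myeloid cells make IL-18, and the summed level of the epithelial markers stated above was also higher in every KO-labelled library. The part of such cells in the Il18 values was not tested. Ebi3, a subunit of IL-27 and IL-35, differed by 0.42. Il12a and Il12b, the subunits of IL-12, were below the filter. Il12b was at 1.75, 2.33 and 0.684 TPM in the KO-labelled libraries and at 0.49, 0.104 and 0.642 TPM in the WT-labelled ones. It was thus higher in every KO-labelled library, though near the floor and not tested. Il12b had 109 reads in the KO-labelled libraries, which were deeper, and 22 in the WT-labelled ones. Il12a had 6 and 8, and its groups overlapped in TPM. Myeloid markers, from the cells that make IL-12, summed to 478 to 847 TPM and to 449 to 697 TPM.

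In the list of T-bet and Runx partners and effector genes linked to T-bet, 0 of 23 tested genes passed. At an unadjusted p under 0.05, 2 were higher and 4 lower, against the same 7.8% and 7.86% of all genes, and the median was -0.04. Nkg7, a cytotoxic granule protein gene, was at -0.68 and Prdm1, which encodes the repressor Blimp-1, at -0.60, and neither pair of groups overlapped (limma adjusted p = 0.195 and 0.207). The kinase gene Txk was at -0.52. Cxcr6, a chemokine receptor of tissue T cells, lay in the other direction at 378, 253.6 and 195.6 TPM against 163.2, 180.8 and 185.7 TPM (0.59, limma adjusted p = 0.266). So did Bhlhe40, a factor that supports IFN-γ production, at 0.33. Cbfb, the partner of the Runx factors, stood at 73.1 ± 9.33 against 73.01 ± 3.06 TPM.

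Of the IFN-γ receptor chains, its targets and the CXCR3 ligands, 0 of 18 tested genes passed. At an unadjusted p under 0.05, 2 were higher and 3 lower, again against 7.8% and 7.86% of all genes, and the median was -0.02. Irf1, a transcription factor induced by IFN-γ, was lower in every KO-labelled library, at 199.05 ± 9.63 against 245.9 ± 19.9 TPM (-0.30, limma adjusted p = 0.229). The GTPase gene Igtp (-0.34) and Cd274, which encodes PD-L1 (-0.26), showed the same order of the groups. Nos2, the inducible nitric oxide synthase, was low, at 3.15 ± 0.467 against 1.12 ± 0.659 TPM, and was higher in every KO-labelled library. The receptor chains of IFN-γ differed in direction, with Ifngr1 at -0.30 and overlapping groups and Ifngr2 at 0.45 and higher in every KO-labelled library. The CXCR3 ligands overlapped between the groups. Cxcl10 stood at 154.3 ± 42.7 against 177.3 ± 60.8 TPM, Cxcl9 at 12.3 ± 5.36 against 6.91 ± 2.66 TPM, and Cxcl11 at 1.64 ± 0.791 against 1.59 ± 0.319 TPM.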

How the data were processed

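RNA-seq libraries of colon Tregs (3 per label, from 1.3 µg of total RNA and a stranded poly(A) kit, per the labels' protocols) were compared. The authors deposited TPM values, 1 row per RefSeq transcript with coordinates and length, per the file headers. Per the submitters' processing notes, which give no settings, the tools were HOMER 4.9.1, STAR 2.5.3a, Trim Galore 0.4.4 and FastQC 0.11.8, with build mm10. TPM multiplied by length gave whole multiples of 1 step per library (within a tolerance of 0.1 reads, 100.0% of values of at most 500 reads came out whole where the rounding of TPM allowed the check), from which reads were recovered. TPM summed to 634200 to 644662 per library.

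log2(TPM + 1) was tested with limma 3.58.1 (R 4.3.3; variance trend, genotype as the only term, Benjamini-Hochberg over all 13211 genes, threshold 0.05, two-sided). The script was checked on simulated data. Ratios were tested with exact permutation tests (scipy 1.17.1). The labels do not say that libraries came from separate animals, so the spread behind the p-values may be only technical. The deposited start equalled a RefSeq start site for 8 of the 9 genes with a promoter window (14 windows in all), Il12rb2 being the exception. Il12rb1 had none. Named genes were all 10 genes, up to 3 of smallest p per list, direct ligand or receptor partners, Foxp3, Gata3 and the 3 nearest patterns. The remaining named genes are the other list members at an unadjusted p under 0.05, the markers of other cells and Nr1d1. The genes and lists were chosen with earlier results of these data known. A count test (edgeR or DESeq2) was not run, since the table is in TPM, and voom on recovered reads was used instead. 1 member of the T-bet partner list is counted but not reported here.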

Additional observations from a re-analysis of the deposited data

How the results depend on the processing

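Over 15 other settings (pseudocount 0.1, no filter or a filter of 5 TPM, no variance trend, voom on recovered reads, median centring, pan T cell scaling, epithelial covariate, replicate block, and each library left out), Cxcr3, Tbx21, Stat4 and Il18rap kept their direction. The median of the 10 genes moved from 0.03 to 0.25 with pan T cell scaling, and to between -0.08 and 0.17 with 1 library left out. The number of the 10 genes whose groups did not overlap was 2 to 5, and the number of all genes passing was 0 to 14, with 1 library left out. With the epithelial covariate, which itself separates the labels, Ifng (-0.51), Il12rb1 (0.032) and Il12rb2 (-0.95) reversed. With pan T cell scaling Il18r1 reversed (0.13). With single libraries left out, the differences that reversed ran between -0.23 and 0.44 for Il12rb2 (-0.10 without KO 1, -0.12 without KO 2, -0.23 without WT 2, -0.10 without WT 3), between -0.30 and 0.064 for Il18r1 (0.064 without KO 3, 0.025 without WT 1), between -0.015 and 0.062 for Runx3 (-0.015 without KO 3) and between -0.061 and 0.27 for Hopx (-0.061 without KO 1). The cause was not tested. The 4 ratios were run in only 7 of these settings, pseudocount 0.1 and each library left out, and kept their direction there. Over all settings the list medians ran from -0.07 to 0.20 (IL-12 and IL-18 signalling), -0.21 to 0.18 (T-bet partners) and -0.17 to 0.20 (IFN-γ targets), each highest with pan T cell scaling. Same-numbered libraries did not deviate together (correlations over genes of 0.0037, -0.219 and -0.0408). These values cannot decide whether the numbers pair animals, since deviations from a mean of 3 libraries depend on one another. The labels do not say that they do. With the replicate block 0 genes passed limma's adjusted threshold, and Cxcr3 stood at an adjusted p of 0.16. Of the 10 genes, 5 then had an unadjusted p under 0.05 (Tbx21, Cxcr3, Stat4, Il12rb1 and Il18rap), against 13.8% of all genes. By voom on recovered reads 0 genes passed and 2177 had an unadjusted p under 0.05, against 2068 in the reported fit. The 10 genes had as few as 116 reads in a library, which limits the precision of single values.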
